A study of Mus musculus with 65 samples.

Results

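The comparison set 26 single cells of embryonic day 15 (E15) against 20 single cells of embryonic day 12 (E12), all marked with FlashTag in the developing cortex of wild-type mouse embryos of the outbred CD1 strain. These 46 cells are every E12 and E15 FlashTag library among the 65 libraries of the series, and the 19 cells that had been moved from E15 to an E12 brain were left aside. The series used Patch-seq, where a recording pipette takes up the RNA of single cells. Each library, made with the SMART-Seq v4 3' DE Kit and Nextera XT, was taken as the RNA of 1 cell. FlashTag is a fluorescent dye that is taken up by cells dividing at the ventricular surface. The labels call the source neuronal progenitors and name no transgene or drug for either age. They name no embryo, litter or time between dye and collection, so each age counted as 1 sample and nothing was tested: differences are given with the values of the cells and carry no p-value.

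Apical progenitors, also called radial glia, line the ventricle of the embryonic cortex, divide there and give rise to the neurons of the cortical layers, deep-layer neurons first and upper-layer neurons later. As the cortex grows older these cells take on genes that are later typical of astrocytes, such as lipid carriers, glutamate transporters and matrix proteins, while genes of early neuroepithelial cells decline. Embryos at E12 lie near the start of cortical neurogenesis and those at E15 in its later course.

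The libraries of the ages differed in depth and in the number of genes they held. E12 cells had 10928 to 1635767 reads (median 148824) and E15 cells 11449 to 4560871 (median 998630), with a median of 3749 and 7498 genes per cell. More than 8000 genes were found in 11 of the 26 E15 libraries and in 0 of the 20 E12 libraries, and these 11 are called many-gene libraries here. All 7 progenitor markers checked (Pax6, Sox2, Hes5, Nes, Vim, Fabp7, Slc1a3) had reads at both ages, with a median of 6 and 6.5 of them per cell. Their summed level, in reads per 1000000 reads over the measured genes (CPM), was above that of 4 neuron markers (Tubb3, Dcx, Stmn2, Neurod6) in 18 of 20 E12 cells, in 14 of the 15 other E15 cells and in 0 of the 11 many-gene libraries. The label of a progenitor therefore went with the markers in most E12 and other E15 cells and against them in the many-gene libraries, so values are given with and without these. The many-gene libraries held 8273 to 10197 genes each, and whether each comes from 1 cell only was not tested. IL numbers in the titles, which the labels do not define, ran from 1 to 7 at E12 and lay above 7 in 21 of the 26 E15 cells, so IL number and age cannot be told apart for most cells. The 8 pools named in the titles each held cells of both ages.

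The deposited values are log10 of 1 plus the reads of a gene per 100000 reads of the cell, centred per gene and with 2 further patterns across cells removed. A difference below is the mean at E15 minus the mean at E12 on this log10 scale, and a size of 0.30 or more is called past 2-fold. Because 1 is added, the scale understates the change of genes with few reads. Of 10407 genes, 293 (2.82%) were higher past 2-fold at E15 and 108 (1.04%) were lower, so 401 (3.85%) were past 2-fold in either direction and 73.1% of these were higher. Before the 2 patterns were removed the counts were 1604 and 100 genes (94.1% higher), and without the many-gene libraries 61.6% of the genes past 2-fold on the deposited values were higher. On the reads of each age added up, with 1 CPM added, 2667 genes (25.6%) were higher past 2-fold and 2077 (20%) lower. A stricter count took genes past 2-fold in the same direction on the deposited values and on the added reads, each with and without the many-gene libraries; 126 genes (1.21%) were higher and 48 (0.461%) lower on all 4, and the phrase all 4 criteria refers to these.

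**Figure D1:**
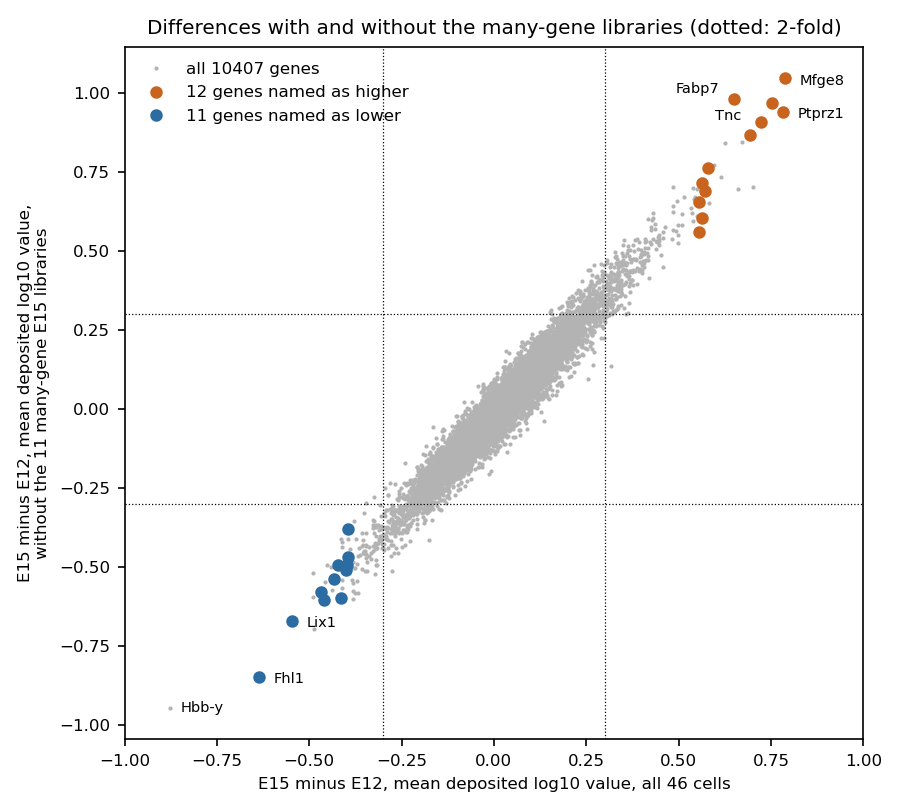
Each point is 1 of 10407 genes, with the E15 minus E12 difference of mean deposited log10 values over all 46 cells on the x axis and the same without the 11 many-gene E15 libraries on the y axis; dotted lines mark 2-fold. Mfge8 lies at the upper right (0.79 and 1.05), Fhl1 at the lower left (-0.64 and -0.85), and Hbb-y, which did not meet all 4 criteria, is the lowest point (-0.88 and -0.95).

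Genes of late radial glia and astrocytes were higher at E15 on the deposited values. Of 27 measured members of this list, 14 were higher past 2-fold (the share over all genes is 2.82%) and 0 lower, and the median difference was 0.31 against 0.03 over all genes. The 14 were Aldh1l1, Aldoc, Apoe, Bcan, Clu, Cst3, Id3, Mfge8, Mt3, Ptprz1, Slc1a3, Sparc, Tnc and Zbtb20. The median lay above 0 in all 8 pools, between 0.26 and 0.54. With the many-gene libraries left out it was 0.37, and 16 members were higher past 2-fold, against 524 of all 10407 genes. The size depended on the 2 removed patterns when the many-gene libraries were kept: before the removal the list's median was 0.04 over all 46 cells, below the 0.13 of all genes, and 0.35 without those libraries. On the added reads 10 members were higher past 2-fold (25.6% over all genes) and 7 lower (20% over all genes), and the list summed to 8308 CPM at E12, 7376 CPM at E15 and 14217 CPM without the many-gene libraries. Summed over the list, the median cell held 9078 CPM at E12 and 7376 CPM at E15, with 14324 CPM in the other E15 libraries and 4951 CPM in the many-gene libraries.

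Mfge8, a secreted protein that bridges dying cells to phagocytes and is abundant in radial glia, had the largest difference among all genes that were higher. It lies on chr7:79133768-79149060 of GRCm38, on the minus strand. E12 cells held 0 to 689.8 CPM with a median of 59.0, and E15 cells 0 to 3275 CPM with a median of 171. The groups overlapped, with 9 of 26 E15 cells above the highest E12 cell; the median was 1008 CPM in the other E15 libraries and 19.5 CPM in the many-gene ones, below the E12 median. The deposited difference was 0.79, it lay between 0.73 and 0.83 when single cells were left out, and it was positive in 8 of 8 pools. With reads drawn at random down to 25000 per cell, and shallower cells left out (thinned below), Mfge8 was seen in 9 of 18 E12 cells and in 18 of 24 E15 cells.

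Ptprz1, a receptor-type phosphatase of radial glia and oligodendrocyte precursors that binds the matrix and pleiotrophin, was at 0 to 1007 CPM (median 47.9) in E12 cells and 0 to 3291 CPM (median 148) in E15 cells. Here 5 E15 cells exceeded every E12 cell, and the difference was 0.78 (0.94 without the many-gene libraries). Tnc, the matrix glycoprotein tenascin C, had reads in 3 of 20 E12 cells, at most 85.3 CPM, and in 14 of 26 E15 cells, up to 1073 CPM. In the other E15 libraries its median was 188 CPM, 9 of those 15 cells held reads, and all 9 lay above the highest E12 cell. The difference of 0.72 was positive in 8 of 8 pools, and at 25000 reads per cell Tnc was seen in 3 of 18 and 10 of 24 cells.

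Apoe, the main lipid carrier of the brain, was high in both kinds of E15 library. Its cells ranged from 0 to 1119 CPM (median 42.0) at E12 and from 0 to 3125 CPM (median 581) at E15, and 24 of 26 E15 cells lay above the E12 median. The median was 1264 CPM in the many-gene libraries and 472 CPM in the other E15 libraries, both above the E12 median. Microglia also make Apoe, and the summed level of 21 microglia genes had a median of 104 CPM in E12 cells, 206 CPM in the other E15 libraries and 4175 CPM in the many-gene libraries; the part of these cells in the Apoe value was not tested. Without the many-gene libraries the Apoe difference was 0.56 on the deposited values, as with them, while it went from 0.92 to 0.67 before the removal and the added reads at E15 went from 1144 to 447 CPM, against 190.4 CPM at E12.

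Sparc, a secreted matrix-binding protein, Zbtb20, a zinc finger repressor of late progenitors and glia, and Slc1a3, the glial glutamate transporter, were higher by 0.70, 0.66 and 0.63. For Slc1a3 the median was 16.5 CPM at E12, 542 CPM in the other E15 libraries and 1.47 CPM in the many-gene libraries. These 3 genes did not meet all 4 criteria, since their added reads over all E15 cells were less than 2-fold above E12 (300.0 against 283 CPM for Sparc, 409.9 against 281 CPM for Zbtb20, 158 against 128 CPM for Slc1a3). Aldh1l1, a folate enzyme used as an astrocyte marker, had reads in 4 of 20 E12 cells, at most 17.5 CPM, and in 12 of 26 E15 cells, up to 700.0 CPM. Id3, which keeps bHLH factors from binding DNA, had reads in 3 and 16 cells, at most 26.7 and 539.9 CPM, and like Aldh1l1 was higher in 8 of 8 pools. Aldoc, the brain form of aldolase, was past 2-fold on the deposited values (0.31) but lower on the added reads (708 and 299 CPM at E12 and E15) and at -0.40 before the removal over all cells, so its direction depended on the measure.

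**Figure D2:**
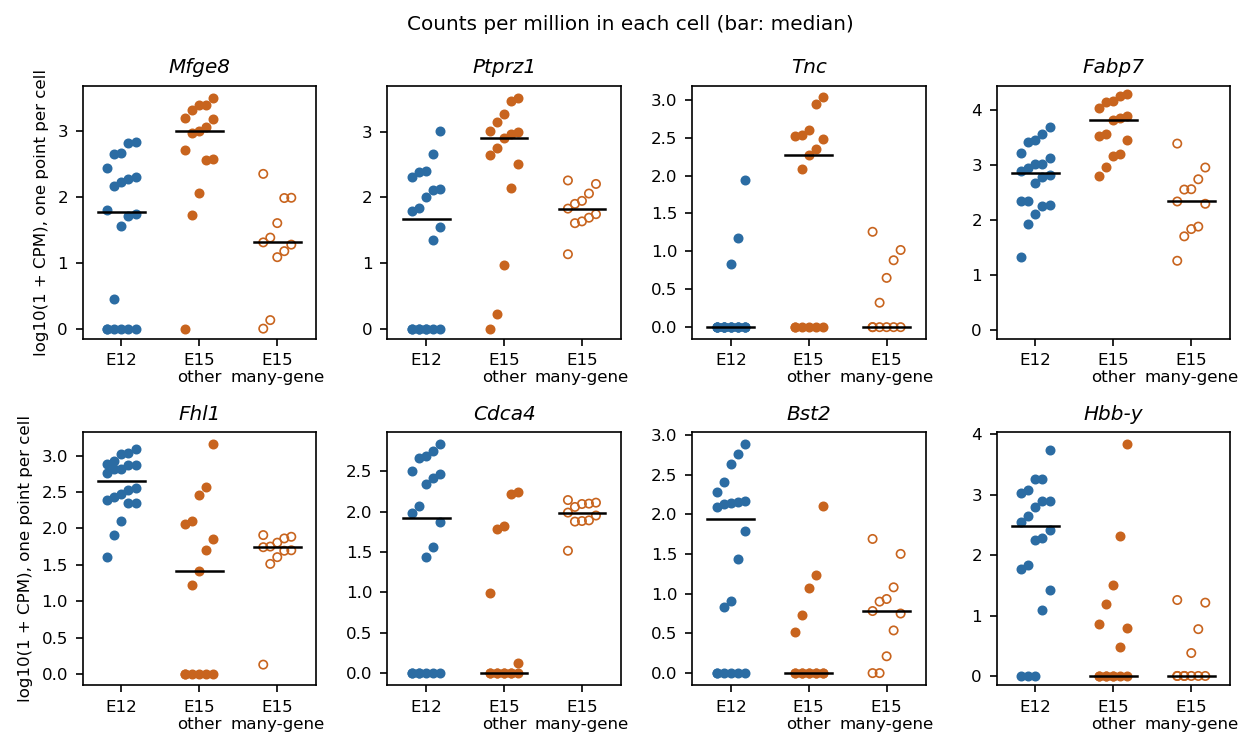
Each point is 1 cell, with log10 of 1 plus CPM on the y axis for 8 genes; filled blue circles are the 20 E12 cells, filled orange circles the 15 other E15 cells, open orange circles the 11 many-gene libraries, and bars are medians. The other E15 libraries lie above E12 for Mfge8, Ptprz1, Tnc and Fabp7 and below it for Fhl1, Cdca4, Bst2 and Hbb-y by their medians, while the many-gene medians are below E12 for Mfge8 and Fabp7 and close to E12 for Cdca4.

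Promoter sequence is shown for 2 of the genes that were higher on all 4 criteria, because the 7-base core to which RBPJ, the DNA-binding partner of Notch, binds (GTGGGAA on either strand) stands in them. The bases are RefSeq's for GRCm38.p6, read 5′ to 3′ along the gene, up to 250 bases before the transcription start, with the core in capitals; 31 bases of Cd9 next to the start were left out because a transcript of the gene holds them.
Mfge8, chr7:79149061-79149310, minus strand: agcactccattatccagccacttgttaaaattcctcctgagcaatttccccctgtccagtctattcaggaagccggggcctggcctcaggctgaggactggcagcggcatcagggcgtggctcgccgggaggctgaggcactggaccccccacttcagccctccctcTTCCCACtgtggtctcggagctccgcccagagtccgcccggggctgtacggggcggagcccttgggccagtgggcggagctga
Cd9, chr6:125494792-125495010, minus strand: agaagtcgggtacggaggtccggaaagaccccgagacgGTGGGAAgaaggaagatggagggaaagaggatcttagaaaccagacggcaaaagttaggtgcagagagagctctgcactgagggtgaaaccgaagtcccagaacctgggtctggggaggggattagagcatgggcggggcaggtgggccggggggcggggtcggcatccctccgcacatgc
The core starts 83 and 212 bases before the listed start in Mfge8 and Cd9. Among the 12 genes named as higher, 10 had a promoter in the table and 3 held the core (Cd9, Mfge8 and Tnc), as did Smad5 among 10 of the 12 named as lower, against 5.42% of all 32851 windows of 250 bases. The palindrome bound by nuclear factor I dimers (TTGGC, any 5 bases, GCCAA) was in none of these windows and in 0.0365% of all. The motifs were chosen with the gene values known, and a match describes letters only.

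Fabp7, the brain fatty acid-binding protein that marks radial glia, was measured in every cell. Levels ran from 20.1 to 4918 CPM (median 720.4) at E12 and from 17.4 to 19580 CPM (median 1561) at E15. The other E15 libraries had a median of 6638 CPM and the many-gene libraries one of 219 CPM, so the E15 cells lay on both sides of E12. The difference was 0.65 over all cells and 0.98 without the many-gene libraries, and it was positive in 7 of 8 pools. Fabp7 and Mfge8 were the genes that were higher past 2-fold whose difference grew most when those libraries were left out. Over the list of 26 apical progenitor genes, which shares Mfge8 and Slc1a3 with the late list, 5 members were higher past 2-fold (Dbi, Ddah1, Fabp7, Mfge8, Slc1a3) and 1 was lower (Lhx2), with a median of 0.08. The direction of the apical list turned with the measure: before the removal its median was -0.11, and on the added reads 4 members were higher and 14 lower past 2-fold (25.6% and 20% over all genes). On the deposited values with the many-gene libraries left out 6 were higher and 3 lower, against 524 and 327 of all 10407 genes. Dbi, an acyl-CoA-binding protein, had a median of 1838 CPM at E12 and 7861 CPM in the other E15 libraries, and its difference was 0.36.

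The other genes named by the rule as higher had more varied roles. Cd9, a tetraspanin of the cell surface, had reads in 4 of 20 E12 cells (at most 118 CPM) and 22 of 26 E15 cells (at most 602 CPM, with medians of 132 CPM in the other and 45.7 CPM in the many-gene libraries), with a difference of 0.57 that was positive in 8 of 8 pools. Ddx56, an RNA helicase of ribosome assembly, had reads in 5 E12 cells and 23 E15 cells; in cells thinned to 25000 reads it was seen in 2 of 18 and 20 of 24. Its level was alike in the many-gene libraries (median 102 CPM) and the other E15 libraries (84.3 CPM). Ctsa, the lysosomal protective protein cathepsin A, had a median of 0 CPM at E12 and 139.8 CPM at E15 (differences 0.56 for Ddx56 and 0.56 for Ctsa). Fgfbp3, a secreted carrier of fibroblast growth factors, and Cyb5a, cytochrome b5 of the endoplasmic reticulum, were higher by 0.69 and 0.58 and in 8 of 8 pools each; 57.9% of the E15 reads of Fgfbp3 came from 1 cell. Acot1, an acyl-CoA thioesterase (0.75), and Rps3a3, a ribosomal protein gene (0.55), have near-identical copies elsewhere in the genome, so which copy the reads came from is uncertain.

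**Figure D3:**
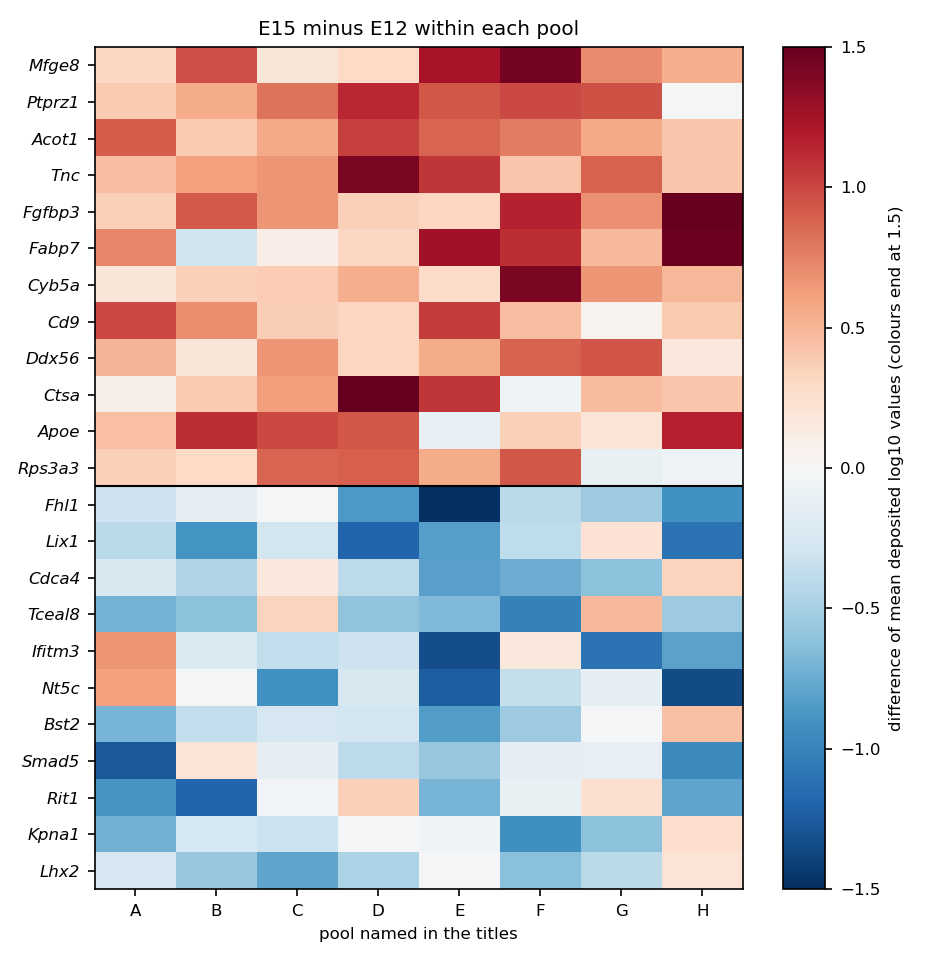
Rows are the 12 genes named as higher (above the line) and 11 of those named as lower (below it), columns are the 8 pools, and colour is the E15 minus E12 difference of mean deposited log10 values within the pool. All 8 pools are positive for Mfge8, Acot1, Tnc, Fgfbp3, Cyb5a, Cd9 and Ddx56, and all 8 are negative for Fhl1; a pool holds 1 to 4 E12 cells and 2 to 5 E15 cells, and pools A and E hold no many-gene library.

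Fhl1, a LIM-domain protein of the cytoskeleton and nucleus, had the largest difference among the genes lower on all 4 criteria. It is on chrX:56731787-56793346, plus strand. All 20 E12 cells held reads, from 40.0 to 1218 CPM with a median of 467, while E15 cells ran from 0 to 1444 CPM with a median of 49.3 and 20 of 26 held reads. Only 1 E15 cell lay above the E12 median, and the medians of the many-gene and other E15 libraries were 54.3 and 25.2 CPM. The difference of -0.64 was negative in 8 of 8 pools, was -0.90 before the removal of the 2 patterns, and ran from -0.68 to -0.59 as each cell in turn was dropped. At 25000 reads per cell Fhl1 was seen in 18 of 18 E12 cells and 13 of 24 E15 cells.

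Lix1, a gene of the embryonic limb and brain, was next, at 0 to 552 CPM (median 76.9) in E12 cells and 0 to 94.7 CPM (median 1.33) in E15 cells. At E12 9 of 20 cells lay above every E15 cell, the difference was -0.55, and at 25000 reads Lix1 was seen in 12 of 18 and 4 of 24 cells. Lhx2, a LIM-homeodomain factor that sets cortical identity, was at 0 to 3142 CPM (median 893) at E12 and 0 to 1143 CPM (median 83.5) at E15. Its median in the other E15 libraries, 374 CPM, lay between those of E12 and of the many-gene libraries (27.3 CPM), and the difference was -0.39 with and -0.38 without the latter. Cdca4, a cell cycle regulator (-0.47), Tceal8, a transcription elongation factor-like protein (-0.46), Nt5c, a nucleotidase (-0.42), Smad5, a transducer of bone morphogenetic protein signals (-0.40), Rit1, a Ras-related GTPase (-0.40), and Kpna1, a nuclear import receptor (-0.39), were also named. For Cdca4, Rit1 and Kpna1 the many-gene libraries were as high as the E12 cells or higher (medians 96.7, 77.7 and 63.6 CPM against 84.7, 27.1 and 44.1 CPM), while the median of the other E15 libraries was 0 CPM for each. Before the removal these 3 and Nt5c were not past 2-fold over all cells, with differences of -0.25, -0.17, -0.24 and -0.27. Smad5 lost its direction in thinned cells, where it was at 0.15 on the CPM scale.

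The genes named as lower included 2 of the interferon response, Bst2, the membrane protein tetherin, and Ifitm3, a membrane protein that blocks virus entry. Bst2 ranged from 0 to 766 CPM (median 91.3) in E12 cells and from 0 to 125 CPM (median 1.46) in E15 cells, with 9 of 20 E12 cells above every E15 cell. Its difference was -0.41, negative in 7 of 8 pools, and the E12 cell with the most Bst2 reads held 67.4% of the E12 total. Thinned to 25000 reads, Bst2 was seen in 12 of 18 E12 and 3 of 24 E15 cells. Ifitm3 had a median of 93.3 CPM at E12 and 2.15 CPM at E15 (-0.43), and turned to 0.24 where only cells whose IL number occurs at both ages were used, 13 at E12 and 5 at E15.

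Other genes of the interferon response were looked up after these values had been seen. Irf9, a transcription factor of the interferon response, was lower past 2-fold (-0.32; 78.5 CPM at E12 and 9.98 CPM at E15). Irf1, Isg15, Ifitm2, B2m and Psmb8 were not past 2-fold, with differences of 0.13, -0.06, 0.07, 0.24 and 0.04. Ifit1, Ifit2 and Ifit3 were looked for as well and are not analysed here. The promoter of Bst2 is shown because it holds the core of the interferon-stimulated response element (GAAA, any 2 bases, GAAA, on either strand), in capitals, which overlaps itself there.
Bst2, chr8:71537473-71537722, minus strand: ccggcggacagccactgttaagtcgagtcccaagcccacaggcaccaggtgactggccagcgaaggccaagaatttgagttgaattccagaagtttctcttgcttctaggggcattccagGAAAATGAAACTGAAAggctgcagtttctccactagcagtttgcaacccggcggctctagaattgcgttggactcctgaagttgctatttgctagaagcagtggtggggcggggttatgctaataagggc
This core was in 2.98% of all windows and in no other promoter among the 20 named genes with one in the table.

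Most early progenitor genes were lower at E15, few of them past 2-fold. Of 8 measured members of the list, 2 were lower past 2-fold (the share over all genes is 1.04%) and 0 higher, 7 had a negative difference, and the median was -0.18 over all cells and -0.23 with the many-gene libraries left out. Igf2bp2, an RNA-binding protein that stabilises growth-related messages, ranged from 0 to 1858 CPM (median 31.6) at E12 and from 0 to 93.8 CPM (median 15.7) at E15. Crabp2, a carrier of retinoic acid, ranged from 0 to 509 CPM and from 0 to 42.2 CPM. In both genes 7 of 20 E12 cells lay above every E15 cell and the other cells overlapped; the differences were -0.35 and -0.32. Nr2f1, a nuclear receptor of area patterning, was the member with a positive difference, 0.09, although its added reads were lower at E15 (161 against 630.1 CPM). The list's median lay above 0 in 3 of 8 pools, so its direction was not shared by all of them.

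Most S phase genes were lower and most G2 and M phase genes higher at E15, by small amounts. Of 50 S phase genes 36 had a negative difference, 4 were lower past 2-fold and 0 higher, and the median was -0.09, against 1.04% lower, 2.82% higher and a median of 0.03 over all genes. Leaving out the many-gene libraries gave -0.15 and 8 lower members, against a median of 0.01 and 327 lower among all 10407 genes. With all cells the median of the list lay above 0 in 3 of 8 pools. Pcna, the sliding clamp of DNA polymerases, was lower in 8 of 8 pools (-0.32), with medians of 276 CPM at E12 and 126 CPM at E15. Dut, which removes dUTP (-0.38), Mcm5, a subunit of the replicative helicase (-0.35), and Atad2, a chromatin ATPase (-0.32), were the others. Mcm5 ranged from 0 to 1210 CPM (median 356) at E12 and from 0 to 672 CPM (median 119) at E15, and 7 E12 cells exceeded every E15 cell. Of 59 G2 and M phase genes, 43 had a positive difference and 3 were higher past 2-fold: Mki67, the proliferation antigen Ki-67, Prc1, of the central spindle, and Cenpf, of the kinetochore, with a median of 0.06 over the list, above 0 in 6 of 8 pools. Over all genes and cells 2.82% were higher, 1.04% were lower and the median was 0.03. By pool, the median of all genes was -0.02 in E, -0.03 in F and between 0.02 and 0.15 in the other pools. It was thus also above 0 in most pools. With the many-gene libraries left out the G2 and M phase list had 4 higher and 3 lower members past 2-fold and a median of 0.03. Of all 10407 genes, 524 were then higher and 327 lower, with a median of 0.01. Mki67 was higher on the deposited values (0.32) and lower on the added reads (82.4 against 144 CPM), so its direction depended on the measure. Cdkn1c, the imprinted inhibitor of cyclin-dependent kinases, had a difference of -0.39: 8 E12 cells, up to 1588 CPM, exceeded the highest E15 cell at 128 CPM. The median cell went the other way, with 0.306 CPM at E12 and 49.1 CPM at E15, and reads were found in 10 of 20 E12 and 20 of 26 E15 cells. The median was 79.8 CPM in the many-gene libraries and 6.68 CPM in the other E15 libraries. At 25000 reads per cell Cdkn1c was seen in 8 of 18 E12 and 10 of 24 E15 cells.

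Of 31 genes of the unfolded protein and integrated stress responses, 3 were lower past 2-fold (1.04% over all genes) and 0 higher, with a median of -0.01. Herpud1, of the machinery that degrades proteins of the endoplasmic reticulum, was at 0 to 1190 CPM (median 327) at E12 and 0 to 429 CPM (median 124) at E15. Its difference was -0.32, and -0.48 without the many-gene libraries. Ddit3, the stress factor CHOP, had a difference of -0.35, and Chac1, which degrades glutathione, one of -0.33. Chac1 had reads in 7 E12 cells, up to 3336 CPM, and in 15 E15 cells, and 5 of the E12 cells exceeded every E15 cell. Its median cell went the other way, with 0 CPM at E12 and 5.43 CPM at E15, and it was lower in 5 of 8 pools. At 25000 reads per cell Chac1 was seen in 5 of 18 E12 and 6 of 24 E15 cells. Hspa5, the chaperone BiP, was at medians of 513 and 366 CPM with a difference of 0.05. Calr, calreticulin, was at 576 and 455 CPM with -0.05, so neither abundant chaperone was past 2-fold on the deposited values. On the added reads Hspa5 was lower past 2-fold (889.5 CPM at E12 and 409.5 CPM at E15), and Calr was not (786.5 and 538.8 CPM). Without the many-gene libraries Hspa5 was at 465.2 CPM at E15, not past 2-fold. Of the 31 genes, 13 were lower and 4 higher past 2-fold on the added reads, against 20% and 25.6% over all genes. The promoters of Herpud1 and Chac1 are shown because each holds the 8 bases TGATGCAA (on either strand), in capitals, a form of the element that C/EBP and ATF factors bind together.
Herpud1, chr8:94386179-94386428, plus strand: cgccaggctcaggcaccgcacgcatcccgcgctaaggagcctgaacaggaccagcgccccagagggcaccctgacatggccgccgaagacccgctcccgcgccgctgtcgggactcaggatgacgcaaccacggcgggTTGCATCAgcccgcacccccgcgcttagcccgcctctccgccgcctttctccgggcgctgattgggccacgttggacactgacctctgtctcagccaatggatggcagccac
Chac1, chr2:119350992-119351241, plus strand: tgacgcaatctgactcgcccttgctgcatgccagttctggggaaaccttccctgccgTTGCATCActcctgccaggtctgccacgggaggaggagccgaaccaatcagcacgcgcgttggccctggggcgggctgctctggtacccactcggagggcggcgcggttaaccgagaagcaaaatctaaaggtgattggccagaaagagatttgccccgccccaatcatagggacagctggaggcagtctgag
These letters were in 0.792% of all windows, and not in the promoter of Ddit3. The last bases of the Chac1 window lie past the GENCODE start of the gene at chr2:119351229.

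Of 89 nuclear genes of the respiratory chain, 7 were higher past 2-fold (2.82% over all genes) and 0 lower. The median was 0.05, against 0.03 over all genes, and lay above 0 in 5 of 8 pools. That of all genes lay above 0 in every pool but E and F. With the many-gene libraries left out 12 were higher, against 524 of all 10407 genes. The 7 were Ndufa5, Ndufa8, Ndufa9, Ndufa11, Ndufs8 and Ndufv3, of complex I, which takes electrons from NADH, and Sdhaf4, an assembly factor of complex II. Only Ndufv3 and Sdhaf4 met all 4 criteria. On the added reads 7 of the 89 genes were higher past 2-fold and 4 lower, against 25.6% and 20% over all genes. Ndufs8 ranged from 0 to 604 CPM (median 11.1) in E12 cells and from 0 to 699 CPM (median 225) in E15 cells, and 24 of 26 E15 cells lay above the E12 median (difference 0.49). Ndufv3 was at medians of 136 CPM at E12 and 725 CPM at E15, and the many-gene and other E15 libraries did not stand apart for it (727 and 722 CPM). At 25000 reads, Ndufs8 was seen in 9 of 18 E12 and 22 of 24 E15 cells. The median of the nuclear list turned to -0.02 where only cells whose IL number occurs at both ages were used. Of the 16 genes of the mitochondrial genome, 0 were past 2-fold, with a median of -0.03.

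The 64 ribosomal protein genes differed little between the ages: the median was 0.003, and apart from Rps3a3 only Rps19, of the small subunit, was past 2-fold. Rps19 ranged from 14.1 to 1977 CPM (median 990.0) at E12 and from 14.6 to 1135 CPM (median 373) at E15. The difference of -0.38 was negative in 8 of 8 pools, and the medians of the many-gene and other E15 libraries were 372 and 373 CPM. Near-identical copies of ribosomal protein genes make the source of such reads uncertain. For comparison, Rpl32, of the large subunit and among the highest of the list, was at medians of 1514 and 1398 CPM (-0.04).

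Red blood cell genes were lower in most E15 cells than in the median E12 cell. Of 5 measured globin and other erythroid genes, 4 were lower past 2-fold (Hbb-y, Hba-x, Hba-a1 and Hbb-bs), against 1.04% over all genes. Higher past 2-fold were 0, and the list median was -0.41. None of them met all 4 criteria, and on the added reads Hba-a1 was higher at E15 (580.5 against 376.7 CPM). Hbb-y, an embryonic beta globin of primitive red cells, had the most negative difference of all genes, -0.88. It ran from 0 to 5551 CPM (median 308) at E12, with reads in 17 of 20 cells, and from 0 to 6897 CPM (median 0) at E15, with reads in 11 of 26 cells. Of the Hbb-y reads at E15, 98.7% lay in 1 cell, which was above every E12 cell, and the added reads (468 and 442 CPM) did not differ past 2-fold. At 25000 reads per cell Hbb-y was seen in 14 of 18 and 2 of 24 cells. Hbb-bs, an adult beta globin, had reads in all 46 cells, with medians of 1332 and 51.5 CPM. Globins are known as products of red cells. The list's median was above 0 in 3 of 8 pools, and the part of red cell RNA in the other results was not tested.

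**Figure D4:**
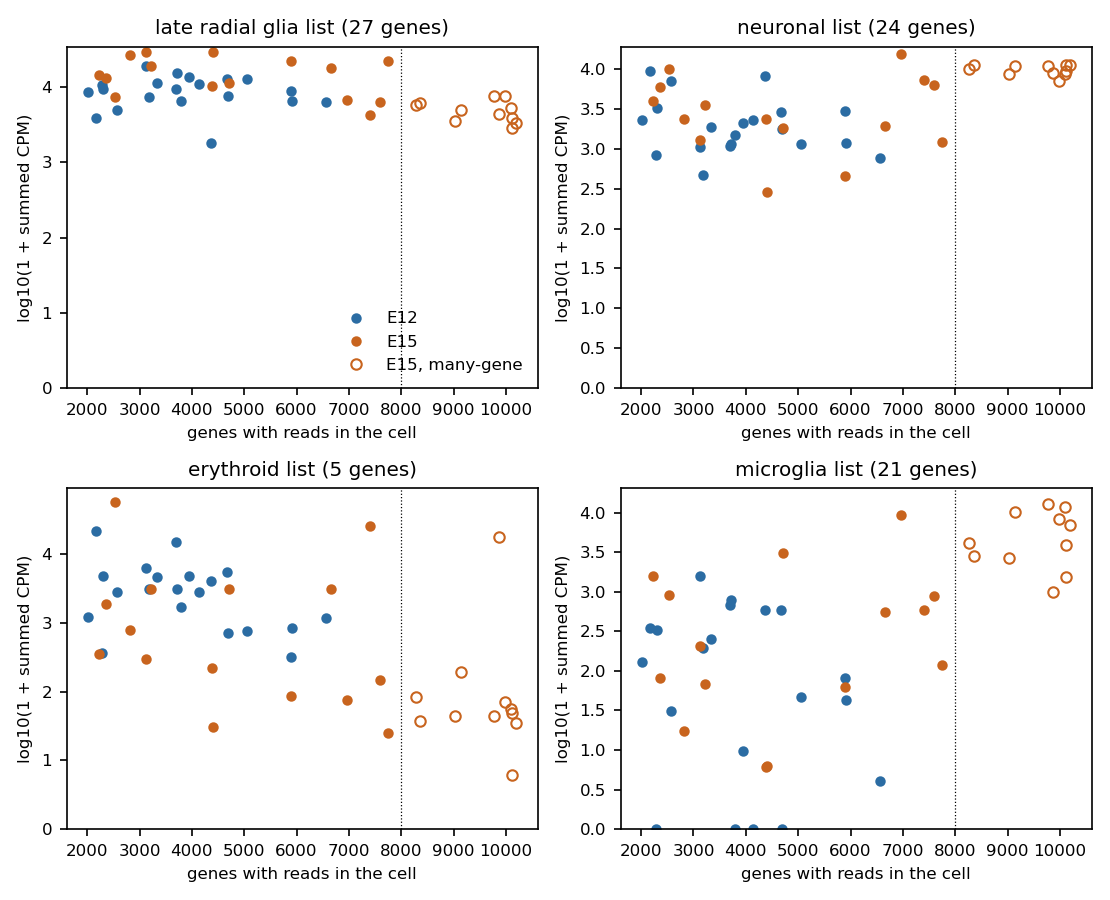
Each point is 1 cell, with the number of genes with reads on the x axis and log10 of 1 plus the summed CPM of a gene list on the y axis; the dotted line marks 8000 genes, and colours are as in the plot of single genes by cell. The 11 many-gene libraries have high neuronal and microglia sums (medians 10056 and 4175 CPM) and low late radial glia sums (4951 CPM), and most E15 cells lie below E12 for the erythroid list.

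Neuronal genes gave different answers on different scales. Over all genes 2.82% were higher and 1.04% lower past 2-fold on the deposited values. On the deposited values the 24 genes had a median of -0.01, with Gap43, a growth cone protein, higher past 2-fold (0.39) and Neurod2 and Neurod6, factors of cortical excitatory neurons, lower (-0.33 and -0.35). Without the many-gene libraries neither was past 2-fold (-0.28 and -0.30), and their added reads turned direction: Neurod2 was at 93.9 CPM at E12, 48.0 CPM at E15 and 148 CPM without those libraries, and Neurod6 at 129, 68.6 and 202 CPM. Before the removal the median was 0.29, and 0.08 without the many-gene libraries. The summed level in the median cell was 1824 CPM at E12, 2382 CPM in the other E15 libraries and 10056 CPM in the many-gene libraries. Neurod6 was lower in 8 of 8 pools, with reads in 10 E12 and 13 E15 cells, while Gap43 was seen at 25000 reads in 4 of 18 and 19 of 24 cells. Among deep-layer and subplate genes 2 of 8 were lower, Nr4a2, a nuclear receptor (-0.31), and Sox5, an HMG-box factor (-0.41), and 0 higher. The median of this list was only -0.02, and 3 of its members had a positive difference. On the added reads 3 were higher and 3 lower past 2-fold, against 25.6% and 20% over all genes. Nr4a2 had reads in 9 E12 cells, up to 1227 CPM, and in 6 of 26 E15 cells, up to 198 CPM, of which 1 was among the 15 other E15 cells. Among 9 upper-layer genes, Pou3f1 and Pou3f2, POU-domain factors, were higher (0.34 and 0.34) and Lhx2 was lower. Pou3f2 had reads in 8 of 20 E12 cells and 22 of 26 E15 cells, and in 4 of 18 and 14 of 24 cells at 25000 reads.

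Ventral forebrain and microglia markers were highest in the many-gene libraries. Ventral forebrain and interneuron genes summed to a median of 679 CPM in E12 cells, 1057 CPM in the other E15 libraries and 5701 CPM in the many-gene libraries, and 0 of 19 were past 2-fold on the deposited values. On the added reads 18 of these 19 were higher and 0 lower past 2-fold, against 25.6% and 20% over all genes. Their median log2 ratio was 3.23 with the many-gene libraries and 0.56 without them. Of 21 microglia genes 1 was higher past 2-fold on the deposited values (2.82% over all genes), Ccl4, a chemokine (0.32, and 0.14 without the many-gene libraries). On the added reads 19 were higher, against 25.6% over all genes. Intermediate progenitor genes had 0 of 14 past 2-fold, and their median changed sign between scales (-0.11 on the deposited values, 0.08 before the removal). Endothelial, mural and choroid plexus lists had 1 measured gene each, the oligodendrocyte precursor list 3 and the Cajal-Retzius list 0, and none of these genes was past 2-fold on the deposited values.

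On the deposited values each of the signalling, chromatin and remaining lists had few members past 2-fold, where 2.82% of all genes were higher and 1.04% lower. With so few members past 2-fold, lists of 12 to 57 genes are too short for such counts to set one apart from all genes. The same limit holds above for the stress list (3 of 31) and the early progenitor and deep-layer lists (2 of 8 each). In the Wnt list 1 of 32 was higher, Dkk3, of the Dickkopf family (0.55), and 1 lower, Csnk1a1, casein kinase 1 alpha of the beta-catenin destruction complex (-0.35). Dkk3 had reads in 1 E12 cell, at 5.84 CPM, and in 12 E15 cells, up to 815 CPM, and was higher in 8 of 8 pools. Csnk1a1 was lower in 8 of 8, but its added reads were 657.2 CPM at E12 and 611.9 CPM at E15, not past 2-fold. In the Hedgehog and BMP list of 23 genes Id3, a target of BMP signals, was higher, and Smad4, the shared partner of receptor Smads (-0.31), and Smad5 were lower. The Smad4 median was 95.7 CPM in E12 cells and 110.0 CPM in E15 cells, with 6.25 CPM in the other E15 libraries and 141 CPM in the many-gene ones. Among 26 Notch genes 0 were past 2-fold, with a median of -0.02, and the same held for 12 FGF and EGF genes (0.07), 35 axon guidance genes (0.06), 16 ion channel and gap junction genes (0.04), 20 immediate-early and heat shock genes (0.04) and 57 splicing factors (-0.05). Of 40 chromatin genes 1 was past 2-fold, Smarcd1, a BAF subunit (-0.43), and of 14 DNA methylation genes 1, Mbd3, of the NuRD complex (0.31). Neither was past 2-fold on the added reads, which were nearly equal. Smarcd1 was at 413.2 CPM at E12 and 423.5 CPM at E15 (257.2 CPM without the many-gene libraries). Mbd3 was at 553.8 CPM at E12 and 550.8 CPM at E15 (576.5 CPM without those libraries). In the adhesion and matrix list 3 of 31 were higher (Bcan, Col11a1, Tnc), and in the cholesterol synthesis list 1 of 26, Hmgcs1 (0.30). The median of the cholesterol list was above 0 in 8 of 8 pools (0.09 over all cells). It ran from 0.004 to 0.34 over the pools, where that of all genes ran from -0.03 to 0.15. Aldoc was the member past 2-fold among 19 glycolysis genes (median -0.03), and Cdkn1c among both 25 G1 genes (0.004) and 15 imprinted genes (-0.06). Of 30 histone genes H2afx, which marks DNA breaks, was higher (0.32) and Hist1h4d, a replication-dependent H4, lower (-0.49). On the added reads more members were past 2-fold, against 20% lower and 25.6% higher over all genes. Lower and higher were 12 and 3 Wnt, 11 and 5 Hedgehog and BMP, 10 and 4 Notch, 12 and 8 adhesion and 10 and 4 G1 genes. More were higher than lower in the FGF and EGF, DNA methylation, ion channel, immediate-early and histone lists.

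**Figure D5:**
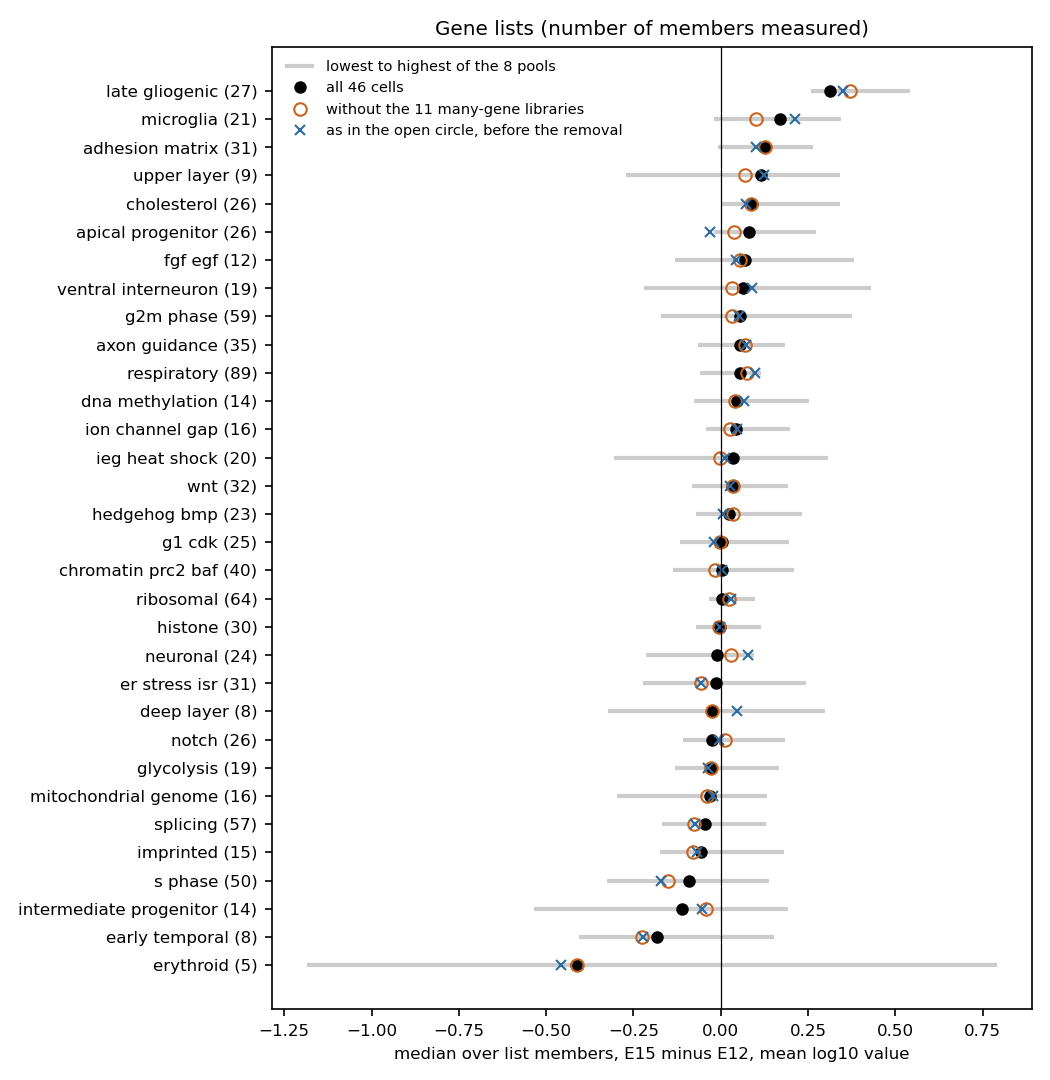
Rows are gene lists with at least 5 measured members, ordered by the median over members of the E15 minus E12 difference of mean log10 values (filled circles, all 46 cells); open circles leave out the 11 many-gene libraries, crosses do the same on values before the removal of the 2 patterns, and grey bars span the 8 pools. The late radial glia list (0.31) is at the top with a bar wholly above 0, and the erythroid list (-0.41) is at the bottom with a bar across 0.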

How the data were processed

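Single-cell RNA libraries (SMART-Seq v4 3' DE Kit, Nextera XT) were analysed for 20 E12 and 26 E15 FlashTag cells, with each library taken as 1 cell. Reads were aligned and counted with STAR and HTSeq on mm10, per the submitters' processing notes, with no version given in the sources used here. The deposited values are on a log10 scale. Their construction was worked out from the values and is stated by no label: log10 of 1 plus reads per 100000, which the authors then centred per gene over 65 cells and from which 2 further directions across cells were removed. The removed directions hold 74.5% of the variance of genes detected, 41.3% of that of log10 reads and 25.7% of that of age.

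Read counts were recovered for all genes in the tables, 10034 from cells at 0 and 373 by a search for whole counts within 0.01, and the tables hold 94.0% to 99.3% of each library's total. CPM and the values before the removal were computed from these counts. The reads carry no molecular identifiers, so reads are not independent molecules. Differences are means over cells, with no filter on low values and, for added reads, a pseudocount of 1 CPM. For 12 genes in each direction the rule took the largest deposited difference among genes past 2-fold on all 4 criteria, with reads in at least 30% of cells of the higher age and the same sign in at least 6 of 8 pools, passing over predicted genes. Of the genes named as lower, 1 is not reported here. For each list the 2 highest and the 2 most different members were also taken, and members past 2-fold are named because they are. The members, the gene lists, the motifs and the limit of 8000 genes were chosen with earlier results of these data known. Genes are placed by GENCODE vM21 and promoters by RefSeq, both on GRCm38. For 3 of the 5 promoters shown, the 50 bases after the listed start lie in a GENCODE transcript of the gene. For Bst2 and Herpud1 they do not. The steps were tested on simulated data and run in Python 3.11.15 with NumPy 2.4.6, SciPy 1.17.1 and pandas 2.3.3. Alternatives were the values before the removal, added reads, thinning, other limits, within-pool differences, subsets of libraries and leaving out each cell or pool.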

Additional observations from a re-analysis of the deposited data

How the results depend on the processing

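Over all settings, 45 counts of genes stayed within 1.5 times the reported one and 17 did not. Of 540 list medians 102 had the opposite sign to the reported one, as had 204 of 2160 values of single named genes. Before the removal of the 2 patterns 1604 genes were higher, list medians were 0.045 (late radial glia), -0.11 (apical), 0.081 (intermediate progenitors), 0.29 (neuronal), 0.14 (chromatin), 0.17 (DNA methylation), 0.19 (ion channel), 0.056 (ribosomal), 0.17 (respiratory), 0.095 (histone), 0.62 (microglia) and 0.40 (ventral), and Aldoc was at -0.40. On added reads (log10 ratio) 2667 genes were higher and 2077 lower, with medians of -0.67 (early), 0.025 (late), -0.34 (apical), 0.53 (neuronal), -0.29 (S phase), -0.22 (G1), -0.24 (stress), -0.16 (Wnt), -0.14 (Notch), -0.17 (Hedgehog and BMP), -0.14 (FGF), 0.15 (ion channel), -0.20 (adhesion), -0.16 (cholesterol), -0.18 (glycolysis), 1.68 (microglia), 0.97 (ventral), -0.69 (endothelial), 0.84 (mural), -0.92 (choroid) and -0.73 (oligodendrocyte precursors), and Aldoc -0.37, Hba-a1 0.19, Mbd3 -0.00234, Mki67 -0.24 and Smarcd1 0.011. Without the many-gene libraries 524 genes were higher and 327 lower.

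Thinned to 25000 reads on the CPM scale, where the median of all genes was 0.21 against 0.03, 3964 genes were higher and 437 lower (964 and 294 by the stricter count). Medians were 0.019 (intermediate), 0.54 (neuronal), 0.43 (upper layer), 0.46 (G2 and M), 0.37 (immediate-early), 0.29 (chromatin), 0.19 (DNA methylation), 0.086 (imprinted), 0.23 (ion channel), 0.26 (axon guidance), 0.067 (ribosomal), 0.27 (respiratory), 1.18 (microglia), 0.68 (ventral), -1.16 (erythroid) and -0.18 (endothelial), with Aldoc -0.41 and Smad5 0.15. Leaving out single cells gave 253 to 336 genes higher and 97 to 132 lower. Leaving out single pools gave 298 to 417 higher (most without pool F) and 118 to 175 lower (most without pool C). The other settings were chosen after seeing the data. Thinned on the deposited scale, 1448 genes were higher, with 0.12 (late), -0.068 (apical), 0.32 (neuronal), 0.35 (upper layer), 0.17 (respiratory), 0.67 (microglia), 0.40 (ventral), Aldoc -0.30 and Smad5 0.010. With IL numbers used at both ages (13 and 5 cells) 940 were higher and 276 lower, with -0.020 (respiratory), 0.35 (mural), 0.028 (choroid), 0.040 (oligodendrocyte precursors), Baz2b 0.0072, Hist1h4d 0.15 and Ifitm3 0.24. Before the removal and without the many-gene libraries 616 and 311 were past 2-fold, with -0.032 (apical). In pools A and E alone (7 and 7 cells) 1083 and 988 were, with 0.035 (intermediate), -0.12 (G1), -0.10 (Hedgehog and BMP), -0.13 (FGF), -0.019 (adhesion), 0.067 (ribosomal), -0.18 (splicing), Hmgcs1 -0.0083, Irf9 0.015 and Prc1 -0.13. The cause of these shifts was not tested. No paired analysis was possible because replicate numbers were given in accession order and pair no cells. Matching ages by pool instead, the mean of within-pool differences put 381 genes higher and 125 lower past 2-fold.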
